A study of Homo sapiens with 6 samples.

Results

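A set of 10 genes that either remove lipid peroxides or feed their formation were followed in SiHa cells with and without P4HA3 overexpression. They are listed by name for their roles in ferroptosis, with earlier results of these data known, and they are 10 of the 60664 genes in the count table. GPX4, AIFM2, DHODH, GCH1, MBOAT1 and MBOAT2 act on the defence side, and ACSL4, ALOX15B, POR and CYB5R1 act on the side that supplies or oxidises lipids. SiHa is an established human cell line from a squamous carcinoma of the cervix, and the libraries came from its parental subline, called SiHa PR. RNA-seq was performed on 3 control libraries, labelled only as SiHa PR, and on 3 libraries of the same cells overexpressing P4HA3, the catalytic alpha subunit of a collagen prolyl 4-hydroxylase. The methods describe a P4HA3 cDNA in the lentiviral vector pCDH, and whether the cells are a clone or a pool, and what the control cells carried, is not given in the sources used here. Nothing states that the 3 libraries of a group came from separate cultures, so the p-values measure the spread between these libraries only, which may be technical. All cells were untreated as far as the labels say, and no ferroptosis inducer is named for them.

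Ferroptosis is an iron-dependent form of cell death in which peroxides accumulate on the polyunsaturated tails of membrane phospholipids. Cells hold it back by reducing the peroxides with the selenoenzyme GPX4, by trapping lipid radicals with reduced coenzyme Q or tetrahydrobiopterin, and by building membranes from monounsaturated fatty acids. They become more prone to it when ACSL4 and its partner acyltransferases load polyunsaturated fatty acids into phospholipids, and when lipoxygenases or the electron-transferring flavoenzymes POR and CYB5R1 start or feed the oxidation.

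The 6 libraries held 21773488 to 24939948 counts. P4HA3 stood at 3.53, 2.91 and 3.80 CPM (counts scaled to the size of their library) in control replicates 1 to 3 and at 1932, 1989 and 1934 CPM with overexpression, a log2 fold change of 9.15 ± 0.101 (SE, edgeR quasi-likelihood test, adjusted p = 3.19e-12), so the labels and the targeted gene matched. The growth text attached to the samples describes uterine smooth muscle, whereas the other labels name SiHa cells. Of the 5 smooth muscle markers DES, MYH11 and CNN1 had at most 9 counts in any library and SMTN 1948 to 2541. ACTG2 differed between libraries within both groups, with 0, 1 and 30 counts in control replicates 1 to 3 and 40, 1 and 44 in overexpression replicates 1 to 3. The list, almost all SMTN, summed to 86.96 to 98.13 CPM in control and 86.64 to 103.0 CPM in overexpression libraries, while the 8 squamous epithelial markers summed to 7772 to 8942 CPM in control and 6560 to 7665 CPM in overexpression libraries. Of those 8, 6 were tested and 5 were lower with overexpression, beside 11.4% of all genes. After the GC and length offset described below 3 of the 6 were lower, beside 9.32% of all genes. The sum of the 8 came mostly from KRT17, KRT8 and KRT18, at control means of 5333, 1816 and 941.3 CPM. The squamous markers KRT5 and TP63 were nearly absent, at 3 to 4 and 3 to 13 counts. KRT6A was low, at means of 2.487 CPM in control and 1.035 CPM in overexpression libraries. Endothelial markers, almost all from PECAM1, summed to 2.57 to 3.47 CPM in control and 1.33 to 1.57 CPM in overexpression libraries, and immune markers to at most 0.123 CPM, and the part of the marker differences in the results below was not tested. The libraries also stood apart by base composition. The Spearman correlation between a gene's deviation from its mean over the libraries and its GC content was 0.52, 0.591 and 0.133 in control replicates 1 to 3 and -0.0468, -0.597 and -0.448 in overexpression replicates 1 to 3, which describes genes within libraries and carries no p. GC content therefore moved with the group, and each tested member is given both as measured and after an offset that removed the dependence on GC content and transcript length from each library. Whether the trend is technical or belongs to the overexpression cannot be told apart here.

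The members spanned a wide range of levels. Per kilobase of their canonical GENCODE transcript, the control means were 519 ± 50.0 CPM per kilobase for GPX4 (SD, n = 3), 49.6 ± 3.44 for POR, 44.2 ± 1.05 for AIFM2, 28.0 ± 1.19 for CYB5R1, 21.3 ± 1.42 for ACSL4, 12.4 ± 0.852 for GCH1, 5.34 ± 0.189 for DHODH, 2.78 ± 0.127 for MBOAT2, 0.573 ± 0.0913 for MBOAT1 and 0.0159 ± 0.0153 for ALOX15B. The order was the same with overexpression. Neighbours in this order did not share any part of their range over the 3 control libraries, and with overexpression only POR, at 40.4 ± 3.01, and AIFM2, at 36.5 ± 2.66, overlapped. The order depends on the transcript taken as each gene's length.

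Of the 10 genes, 9 passed the filter on low counts, and ALOX15B did not. With P4HA3 overexpression 3 of the 9 fell (GPX4, AIFM2 and POR) and 0 rose by edgeR at an adjusted p under 0.05, against 11.4% of all 15130 genes tested that were called lower, 9.36% called higher and 20.8% called in either direction. At an unadjusted p under 0.05 4 of the 9 were lower and 1, MBOAT2, was higher, and DESeq2 and limma-voom each called 0 higher and 3 lower. The log2 fold change was negative in 8 of the 9, with a median of -0.20 beside 0.01 over all genes tested. The 2 groups did not overlap for 4 of the 9, close to the 40.1% of all genes for which they did not. After the GC and length offset 3 of the 9 were again lower and 0 higher, against 9.32% of genes lower, 9.23% higher and 18.5% called in either direction. They were AIFM2, GCH1 and ACSL4, so AIFM2 alone was called lower in both. All 9 log2 fold changes were then negative, with a median of -0.12. The groups did not overlap for AIFM2, POR, CYB5R1, ACSL4 and GCH1 after the offset, beside 36.7% of all genes.

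**Figure D1:**
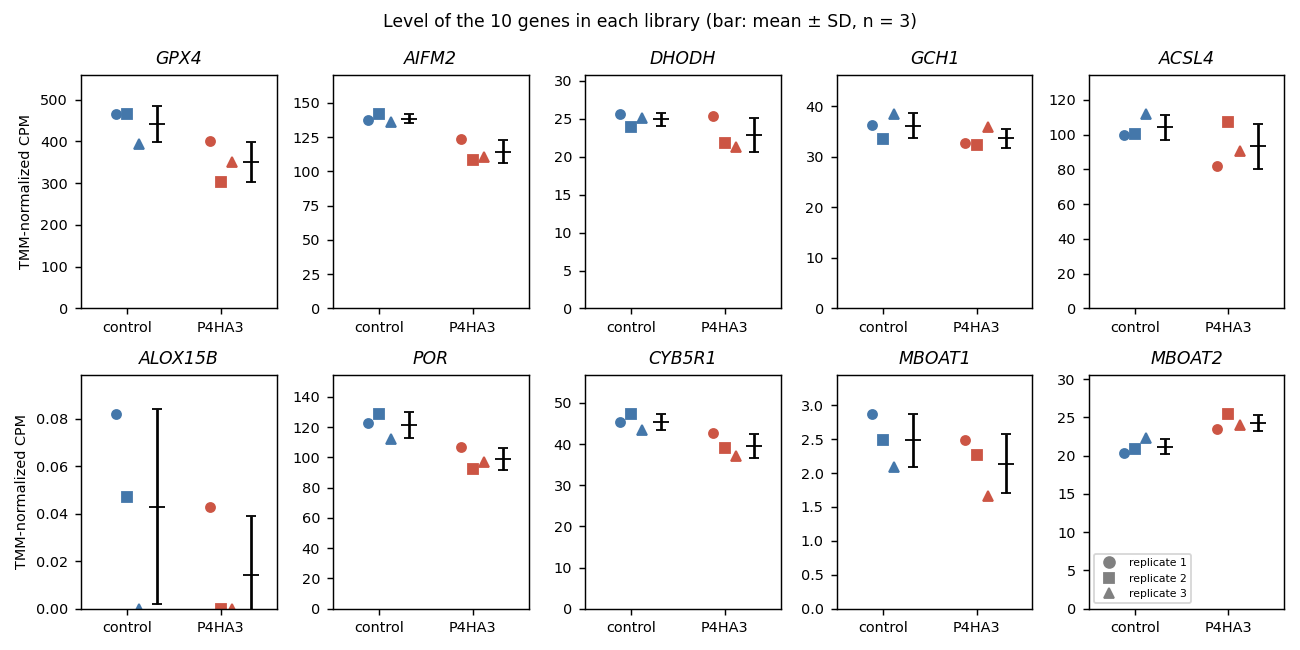
CPM of the 10 members in each of the 6 libraries, control and P4HA3 overexpression, 1 panel per gene, with points for libraries and bars for the mean and SD (n = 3). AIFM2, POR and CYB5R1 lie lower and MBOAT2 higher in all 3 overexpression libraries, whereas GPX4 and ACSL4 overlap between the groups.

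GPX4, which reduces phospholipid hydroperoxides at the expense of glutathione, was the most abundant member. It is ENSG00000167468, on chromosome 19 at 1103982 to 1106791 (GRCh38, plus strand), with 7 exons in an 851-base canonical transcript of 62.3% GC. GPX4 was at 466.5, 466.1 and 392.6 CPM in control replicates 1 to 3 and at 399.9, 302.4 and 349.5 CPM in overexpression replicates 1 to 3. Control replicate 3 was the lowest control and lay below overexpression replicate 1, so the groups overlapped. The control mean was 441.7 ± 42.5 CPM and the overexpression mean 350.6 ± 48.8 CPM (SD, 3 libraries each). GPX4 fell by 20.6%, or -0.33 ± 0.101 on the log2 scale (SE, 95% interval -0.56 to -0.11), with an adjusted p of 0.0427 by edgeR. This was a narrow call: without control replicate 1, control replicate 2, overexpression replicate 2 or overexpression replicate 3 it was no longer made, with log2 fold changes from -0.44 to -0.24 over the 6 omissions. After the offset the log2 fold change was -0.09 ± 0.0453 (95% interval -0.19 to 0.01, adjusted p = 0.189, edgeR). In bulk RNA a lower level in every cell and a larger share of cells with a low level cannot be told apart.

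The bases just upstream of GPX4 are shown because they carry the gene's GC-rich start. From RefSeq (GRCh38.p14, plus strand), chr19:1103744-1103981 is 238 bases long with 68.9% GC, and capitals mark the letters CCAAT, the sequence bound by NF-Y, on either strand, which occur at 2 places.
GPX4: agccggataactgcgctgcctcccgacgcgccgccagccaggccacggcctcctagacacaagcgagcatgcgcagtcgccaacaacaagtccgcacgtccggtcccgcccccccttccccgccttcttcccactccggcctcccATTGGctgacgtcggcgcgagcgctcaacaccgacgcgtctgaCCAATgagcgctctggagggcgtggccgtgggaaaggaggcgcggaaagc
RefSeq promoters were matched for 5 of the 10 members, GPX4, AIFM2, DHODH, ACSL4 and MBOAT2. In the 250 bases before the RefSeq start site CCAAT was found in GPX4 and DHODH, beside 32.0% of 35116 promoters. In all 5 members these bases reach past the GENCODE start, and the DHODH match lies past it. The letters GGGCGG, the GC box, were found in all 5, with 1 match each in GPX4 and AIFM2, 3 each in DHODH and ACSL4 and 7 in MBOAT2, beside 42.6% of promoters. These matches describe letters and not bound sites.

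AIFM2 (ENSG00000042286), also called FSP1, regenerates the reduced, radical-trapping form of coenzyme Q at the plasma membrane, apart from the glutathione system. It lies on chromosome 10 at 70098223 to 70132934 (minus strand, 9 exons, 55.4% GC). AIFM2 was at 137.3, 142.2 and 135.9 CPM in the controls and at 123.8, 108.5 and 110.5 CPM with overexpression. All 3 overexpression libraries were below all 3 controls. The mean went from 138.5 ± 3.29 to 114.2 ± 8.34 CPM, and AIFM2 fell by 0.28 on the log2 scale (SE 0.0629, 95% interval -0.42 to -0.14, adjusted p = 0.0155, edgeR), or -17.5%. After the offset it fell by 0.17 (SE 0.0409, adjusted p = 0.0135). AIFM2 was called under 17 of 22 alternatives (other tools, scalings, filters, offsets and omissions of 1 library), with adjusted p from 0.00142 to 0.0839, and was not called as measured without control replicate 1, control replicate 2 or overexpression replicate 3. With the offset it was called in 4 of 6 fits that left out 1 library. It was lost without control replicate 2 (adjusted p = 0.0606) or overexpression replicate 3 (adjusted p = 0.0609). Exons of AIFM2 and of MACROH2A2, a histone variant gene on the opposite strand, share 986 bases, and MACROH2A2 fell as well, from 62.5 ± 3.75 to 48.0 ± 3.06 CPM (log2 fold change -0.38, adjusted p = 0.00767). The libraries were made by a strand-specific dUTP protocol according to the methods, but the strand setting of the counting is not given in the sources used here, so whether reads of the 2 genes were kept apart is unknown.

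The AIFM2 start site is shown because FSP1 is a known target of the antioxidant response factor NRF2. Of the 5 promoters, TGACNNNGC, the core of the antioxidant response element, occurred on either strand in AIFM2 and in no other, beside 10.9% of the 35116 promoters. It stands at chr10:70132828-70132857 (GRCh38.p14, minus strand), with the match in capitals as its reverse complement, ending 13 bases before the RefSeq start at 70132825. These bases lie inside the GENCODE span of AIFM2, whose start is at 70132934. The match is thus upstream of the RefSeq start only. The same letters also hold TGAGTCA, the AP-1 site.
AIFM2: cagcacgagtGCTGAGTCAcgccccgcccg

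DHODH and GCH1 also protect against lipid peroxidation, by other routes. DHODH (ENSG00000102967, chromosome 16, 72008588 to 72027664, plus strand) is a pyrimidine synthesis enzyme of the inner mitochondrial membrane that passes electrons to coenzyme Q there. DHODH was at 25.68, 23.96 and 25.15 CPM in the controls and 25.35, 21.86 and 21.23 CPM with overexpression. Overexpression replicate 1 lay among the controls. The log2 fold change was -0.13 ± 0.0868 (95% interval -0.32 to 0.06, adjusted p = 0.294, edgeR) and no alternative of 22 called it. After the offset it was -0.09 ± 0.0742 (adjusted p = 0.411, edgeR).

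GCH1 (ENSG00000131979, chromosome 14, 54842008 to 54902826, minus strand) catalyses the rate-limiting step of tetrahydrobiopterin synthesis. GCH1 was at 36.39, 33.62 and 38.58 CPM in the controls and 32.82, 32.26 and 35.88 CPM with overexpression. The ranges overlapped, and the log2 fold change was -0.11 ± 0.0773 (95% interval -0.28 to 0.07, adjusted p = 0.334, edgeR). After the offset GCH1 levels were 37.75, 36.15 and 39.04 against 32.18, 30.4 and 34.34 adjusted CPM and no longer overlapped. GCH1 then fell by 0.22 on the log2 scale (SE 0.0586, adjusted p = 0.0234, edgeR), or -14.2%. That call was made in 3 of the 6 offset fits with 1 library left out, an alternative chosen after seeing the data, with adjusted p from 0.0264 to 0.0921.

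MBOAT1 and MBOAT2 are acyltransferases that place monounsaturated fatty acids into phospholipids, and MBOAT1 is described as a target of the estrogen receptor ESR1. MBOAT2 (ENSG00000143797, chromosome 2, 8852690 to 9003709, minus strand, 38.1% GC) was the only member with a positive change as measured. MBOAT2 was at 20.39, 20.87 and 22.25 CPM in the controls and 23.46, 25.46 and 23.99 CPM with overexpression, with every overexpression library above every control. The log2 fold change was 0.20 ± 0.0769 (95% interval 0.03 to 0.37), and with an adjusted p of 0.0871 (edgeR) it did not pass. After the offset it was -0.06 (adjusted p = 0.581) and the groups overlapped. MBOAT1 (ENSG00000172197, chromosome 6, 20099684 to 20212469, minus strand) had 42 to 70 counts per library. MBOAT1 was at 2.87, 2.48 and 2.08 CPM in the controls and 2.49, 2.27 and 1.65 CPM with overexpression, which overlapped. Its log2 fold change was -0.22 ± 0.194 (95% interval -0.65 to 0.21, adjusted p = 0.418, edgeR), and -0.31 ± 0.198 after the offset (adjusted p = 0.303). ESR1 was not tested, since it had 0 to 1 counts in any library, under the floor of 3 counts.

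**Figure D2:**
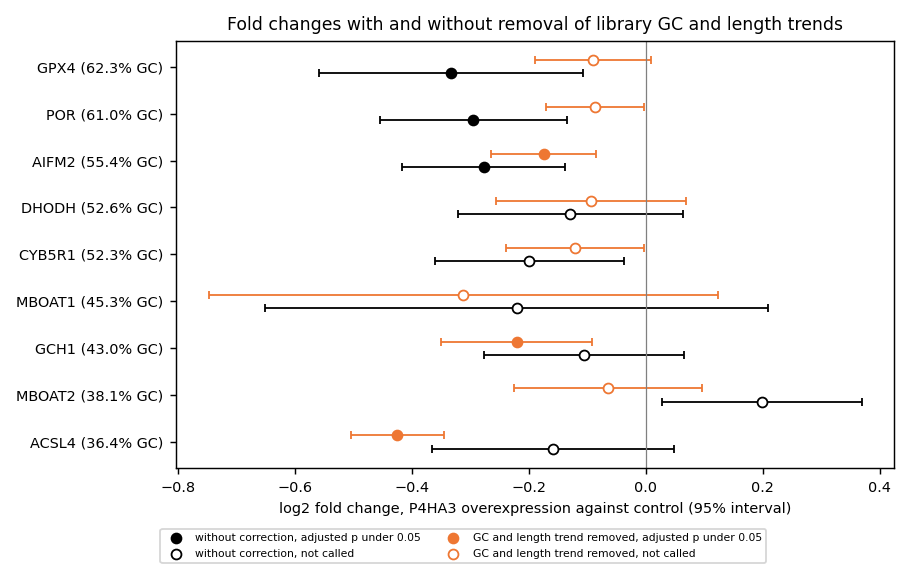
Log2 fold change of the 9 tested members, P4HA3 overexpression over control, with 95% intervals, as measured and after the GC and length offset. GPX4 and POR move towards 0 with the offset, from -0.33 to -0.09 and from -0.29 to -0.09, while ACSL4 moves away from 0, from -0.16 to -0.42.

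On the side that prepares lipids for oxidation, ACSL4 was the member most changed by the offset. ACSL4 (ENSG00000068366, chromosome X, 109624244 to 109733403, minus strand, 16 exons) activates arachidonic and adrenic acid for phospholipid synthesis, and its canonical transcript of 36.4% GC is the poorest in GC of the 10. ACSL4 was at 100.1, 100.2 and 112.2 CPM in the controls and 82.02, 107.5 and 90.78 CPM with overexpression. Overexpression replicate 2 lay within the control range and the other two lay below it. The mean went from 104.2 ± 6.96 to 93.4 ± 12.9 CPM, a log2 fold change of -0.16 ± 0.0932 (95% interval -0.37 to 0.05, adjusted p = 0.233, edgeR). After the offset ACSL4 was at 114.9, 112.5 and 114.2 adjusted CPM in the controls and 83.95, 86.13 and 84.46 adjusted CPM with overexpression. The groups then lay far apart, and the SDs shrank to 1.25 and 1.14 around means of 113.9 and 84.8. SDs this small are below the counting error of the 1912 to 2749 ACSL4 counts per library, so they overstate the precision. ACSL4 thus fell by 0.42 on the log2 scale after the offset (SE 0.036, 95% interval -0.50 to -0.34, adjusted p = 3.5e-05, edgeR), or -25.5%. All 6 offset fits with 1 library left out called it, with log2 fold changes from -0.44 to -0.41 and adjusted p from 1e-05 to 0.000903. As measured it was called in only 1 of 6 such fits, without overexpression replicate 2 (log2 fold change -0.27, adjusted p = 0.0242).

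Set against the main peroxide reductase, there were 21.5, 21.5 and 28.6 ACSL4 counts per 100 GPX4 counts in control replicates 1 to 3 and 20.5, 35.5 and 26.0 in overexpression replicates 1 to 3. The groups overlapped in this ratio, and control replicate 3 and overexpression replicate 2 were the highest of their groups. The ratio sets a transcript of 36.4% GC against one of 62.3%, so as raw counts it carries each library's GC dependence. After the offset GPX4 was at 415.9, 410.6 and 387.4 adjusted CPM in the controls. With overexpression it was at 398.1, 360.8 and 380.8, which overlapped, whereas the ACSL4 groups lay apart. The ratio was not formed after the offset, so its overlap holds for raw counts only. Across the 6 libraries, which share their spread in GC dependence, GPX4 and ACSL4 had a Pearson r of -0.113 (log2 CPM as measured, n = 6). This is a description only, since 6 libraries are too few to tell whether the genes are related.

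**Figure D3:**
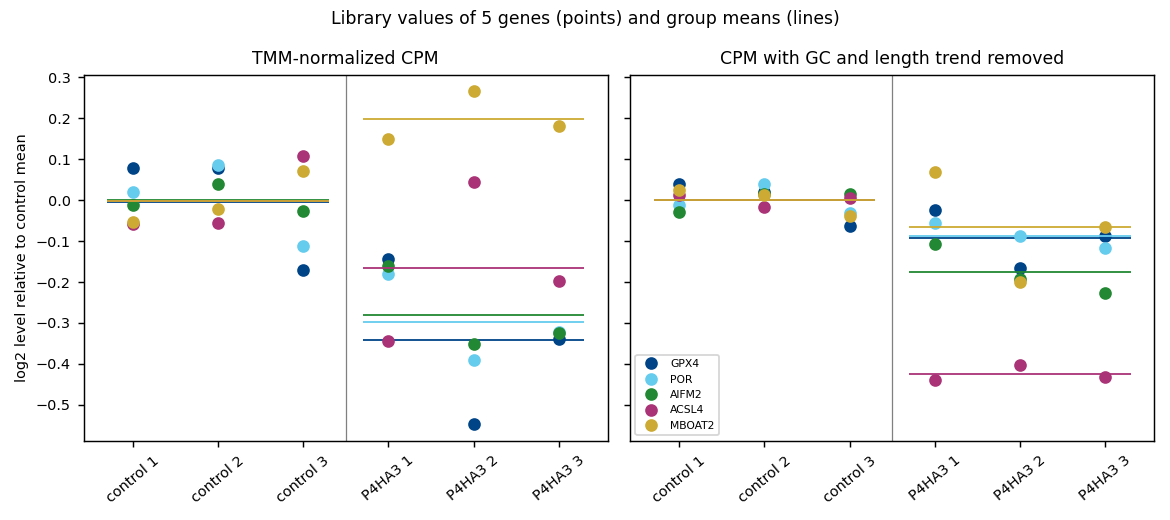
Log2 level of GPX4, POR, AIFM2, ACSL4 and MBOAT2 in each of the 6 libraries (points) relative to the control mean of the gene, with lines at the group means, for CPM as measured (left) and with the GC and length trend removed (right). In overexpression replicate 2 as measured, GPX4 is lowest and MBOAT2 highest, and after the offset ACSL4 lies lowest of the 5 genes in all 3 overexpression libraries.

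POR and CYB5R1 pass electrons from NADPH and NADH to oxygen or to heme proteins, and the hydrogen peroxide they form can start lipid peroxidation. POR (ENSG00000127948, chromosome 7, 75899200 to 75986855, plus strand, 61.0% GC) serves the cytochrome P450 enzymes. POR was at 122.9, 128.8 and 112.2 CPM in the controls and 107.0, 92.59 and 97.09 CPM with overexpression, and the groups did not overlap. POR fell by 0.29 on the log2 scale (SE 0.0724, 95% interval -0.46 to -0.13, adjusted p = 0.0206, edgeR), or -18.5%. Without control replicate 1, control replicate 2 or overexpression replicate 3 it was not called, and after the offset it was at -0.09 ± 0.0382 (adjusted p = 0.137) with the groups still apart. CYB5R1 (ENSG00000159348, chromosome 1, 202961873 to 202967275, minus strand) was at 45.46, 47.36 and 43.48 CPM in the controls and 42.64, 39.01 and 37.06 CPM with overexpression. All 3 overexpression libraries were below the controls, by -0.20 ± 0.0728 on the log2 scale, and CYB5R1 did not pass (adjusted p = 0.0737, edgeR). It was called without overexpression replicate 1 alone (log2 fold change -0.25, adjusted p = 0.0175). After the offset CYB5R1 was at -0.12 ± 0.0535 (adjusted p = 0.14, edgeR), with the groups still apart.

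ALOX15B (ENSG00000179593, chromosome 17, 8039034 to 8049134, plus strand), a lipoxygenase that peroxidises arachidonic acid, was at the limit of detection. ALOX15B had 2, 1 and 0 counts in the controls and 1, 0 and 0 with overexpression. Each library lay under the floor of 3 counts, so no fold is given, and an exact two-sided permutation test over the libraries gave p = 0.4, where 0.1 is the smallest these libraries allow. Of the related lipoxygenases ALOX5, ALOX12 and ALOX15 had 0 to 2 counts in any library, ALOXE3 3 to 7 and ALOX12B 17 to 26, and of these ALOX12B alone was tested (log2 fold change -0.11, adjusted p = 0.762, edgeR). No difference in ALOX15B was detectable at this depth.

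Several members moved together across the 6 libraries. POR was the member most like GPX4 and the one most like AIFM2 (Pearson r of log2 CPM 0.968 for each, n = 6), CYB5R1 was most like AIFM2 (r = 0.953) and DHODH was most like AIFM2 (r = 0.806). MBOAT2 ran opposite to GPX4 (r = -0.96) and to POR (r = -0.967). MBOAT1 was most like CYB5R1 (r = 0.77), GCH1 most like AIFM2 (r = 0.395), ACSL4 most like GCH1 (r = 0.386) and MBOAT2 least unlike ACSL4 (r = -0.132). The points share library, group and GC dependence, so these values are descriptions. Among 9233 genes whose mean level reached 10 CPM, those most like GPX4 were YIF1B (r = 0.9985), PYCR1 (r = 0.9978) and MCRIP2 (r = 0.9977), whose transcripts are 62.9%, 63.1% and 69.0% GC beside 62.3% for GPX4. Those most like ACSL4 were WWTR1 (r = 0.9888), RHOQ (r = 0.988) and FBXL20 (r = 0.9874), at 42.2%, 42.3% and 44.0% GC. The partners of ACSL4 were richer in GC than ACSL4 itself, at 36.4%. These r values use CPM as measured, and the part of base composition in them was not tested.

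The partner genes of each member were read from lists of the same pathways. ACSL4 feeds the genes that load polyunsaturated acyl chains into phospholipids. These were listed with other acyl-chain genes of phospholipids and with those that build ether lipids, so the list is not 1 of polyunsaturated loading alone. Of the 16 listed genes, 15 were tested, and 3 fell (LPCAT4, LPCAT3, ACSL5) and 1 rose (AGPS), beside 11.4% of all genes lower and 9.36% higher, with a median log2 fold change of -0.14. The groups did not overlap, in either direction, for 13 of the 15, beside the 40.1% of all genes. Of the 15 log2 fold changes 10 were negative and 5 positive, and all the positive ones were among the 13. LPCAT3, which inserts arachidonic acid into phospholipids after ACSL4 has activated it, was at 154.4, 168.5 and 147.6 CPM in the controls and 121.8, 109.1 and 107.8 CPM with overexpression. These ranges lay well apart, and LPCAT3 fell by 0.47 on the log2 scale (SE 0.0697, adjusted p = 0.00275, edgeR) and by 0.41 after the offset (adjusted p = 0.000298). LPCAT3 shares 3096 exonic bases with EMG1 on the opposite strand, a ribosome assembly gene whose own log2 fold change was -0.14 (adjusted p = 0.18). LPCAT4, a related lysophospholipid acyltransferase, was at 41.31, 42.01 and 40.01 CPM against 27.07, 27.5 and 30.25 CPM and fell by 0.54 (SE 0.0707, adjusted p = 0.00164) and by 0.41 after the offset (adjusted p = 0.00124). LPCAT3 and LPCAT4 were called under all 22 alternatives.

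ACSL5, a long-chain acyl-CoA synthetase, fell from 46.9 ± 1.14 to 41.2 ± 0.425 CPM (log2 fold change -0.19, adjusted p = 0.0493, edgeR) and by 0.28 after the offset (adjusted p = 0.00151). As measured, leaving out any 1 of the 6 libraries lost the call of ACSL5, whereas all 6 such fits with the offset made it. AGPS, which forms the ether bond of plasmalogen precursors, rose from 74.8 ± 3.81 to 91.7 ± 7.51 CPM (log2 fold change 0.29, adjusted p = 0.0198), but after the offset its log2 fold change was 0.0014 (adjusted p = 0.99), and as measured it was called in 3 of 6 fits that left out 1 library. MBOAT7, the most abundant gene of the list, had a log2 fold change of -0.13 (adjusted p = 0.155), and after the offset it was higher by 0.12 (adjusted p = 0.0417). After the offset 7 of the 15 were lower and 1 was higher, beside 9.32% and 9.23% of all genes, and the median was -0.16. ACSL3, which activates monounsaturated fatty acids, was among the lower ones, so this count mixes genes of unlike roles.

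**Figure D4:**
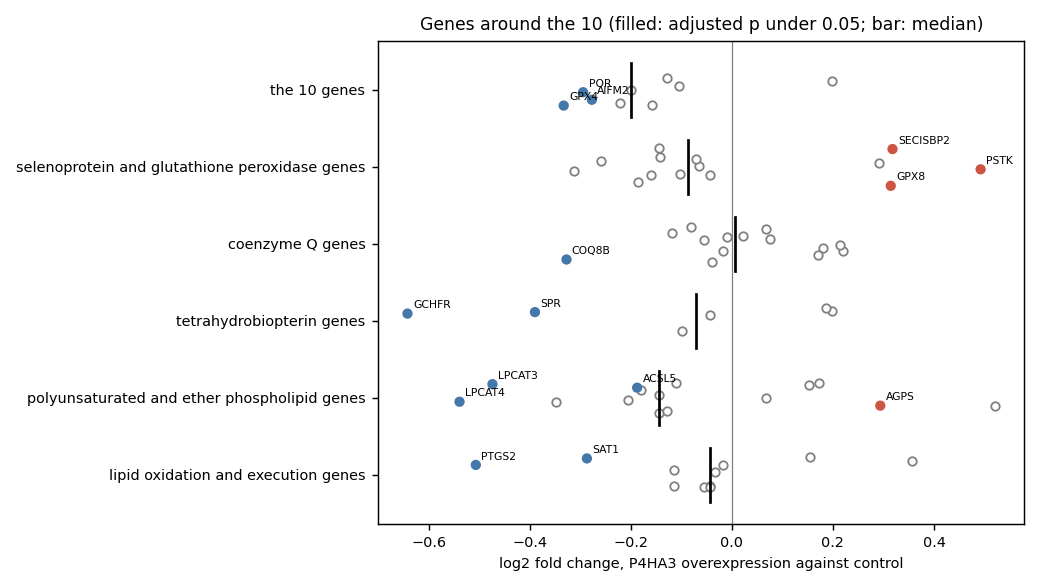
Log2 fold change as measured, P4HA3 overexpression over control, of each tested gene (points) among the 10 members and the 5 pathway lists, with genes past an adjusted p of 0.05 filled and named and the median as a bar. The medians run from -0.20 for the members and -0.14 for the phospholipid list to 0.01 for the coenzyme Q genes.

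In the list for selenoproteins and glutathione peroxidases, which supplies and parallels GPX4, 14 of 15 genes were tested, 3 rose and 0 fell by edgeR, beside 9.36% and 11.4% of all genes. After the offset 1 (PSTK) was higher and 2 (LRP8 and PRDX6, named after their values were seen) were lower, beside 9.23% and 9.32% of all genes. At an unadjusted p under 0.05 2 were lower, DESeq2 called 1 lower and limma-voom 0. PSTK, which makes the phosphoseryl-tRNA used for selenocysteine, rose from 4.60 ± 0.568 to 6.49 ± 0.604 CPM (log2 fold change 0.49 ± 0.129, adjusted p = 0.0257), with the same 0.49 after the offset (adjusted p = 0.0127). SECISBP2, which lets ribosomes read UGA as selenocysteine, rose by 0.32 (adjusted p = 0.0447), with 0.25 after the offset (adjusted p = 0.0533). GPX8, a peroxidase of the endoplasmic reticulum that holds no selenocysteine, rose by 0.31 (adjusted p = 0.035), with 0.13 after the offset (adjusted p = 0.136). Leaving out 1 library as measured, PSTK was called in 3 of 6 fits and SECISBP2 and GPX8 in 2 of 6 each. GPX1, the most abundant gene of the list, was at 595.5 ± 52.8 against 497.5 ± 68.6 CPM and did not pass (log2 fold change -0.26, adjusted p = 0.0839), with -0.02 after the offset. A pseudogene, GPX1P1, took 127 to 229 counts of its own, so GPX1 reads may be split. The list median was -0.09.

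Coenzyme Q is the substrate of AIFM2 and DHODH. Of 15 genes listed around it, not all of which act on coenzyme Q itself, 14 were tested. By edgeR 1 fell and 0 rose, beside 11.4% and 9.36% of all genes. After the offset 1 was lower and 0 higher, but the gene was VKORC1L1, named here after its values were seen (log2 fold change -0.16, adjusted p = 0.0237). VKORC1L1 is among the listed genes that do not make, move or reduce coenzyme Q. At an unadjusted p under 0.05 3 were higher, and DESeq2 and limma-voom each called 0 higher. COQ8B, a kinase-like protein needed for coenzyme Q synthesis, fell from 49.5 ± 3.07 to 39.4 ± 3.41 CPM (log2 fold change -0.33, adjusted p = 0.02), with -0.11 after the offset (adjusted p = 0.182), and COQ8B was called in 3 of 6 fits that left out 1 library as measured. NQO1, a quinone reductase and NRF2 target, was the most abundant at 2561 ± 99.9 against 2881 ± 192 CPM (log2 fold change 0.17, adjusted p = 0.11). The list median was 0.01, as for all genes.

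Tetrahydrobiopterin is the product of the pathway that GCH1 opens, and 2 of its 6 other genes fell while 0 rose, beside 11.4% and 9.36% of all genes, with the same counts after the offset. At an unadjusted p under 0.05 2 were higher, and DESeq2 and limma-voom each called 0 higher. GCHFR, the feedback regulator protein that binds GCH1, was at 54.48, 53.41 and 44.34 CPM in the controls and 36.16, 27.41 and 33.87 CPM with overexpression, without overlap. GCHFR fell by 0.64 on the log2 scale (SE 0.111, adjusted p = 0.00558, edgeR) and by 0.38 after the offset (adjusted p = 0.00144). GCHFR was called under 21 of 22 alternatives. GCHFR exons share 1149 bases with DNAJC17 on the opposite strand, whose log2 fold change was 0.02 (adjusted p = 0.896). SPR, the reductase of the last step, fell by 0.39 (SE 0.0862, adjusted p = 0.0143) and by 0.20 after the offset (adjusted p = 0.012), and SPR was called under 16 of 22 alternatives.

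Among 18 genes of lipid oxidation and of the last steps of ferroptosis, the company of ALOX15B, POR and CYB5R1, 11 were tested, 2 fell and 0 rose by edgeR, beside 11.4% and 9.36% of all genes. After the offset 3 were lower and 3 higher, beside 9.32% and 9.23%, the higher ones being CYB5R3, NINJ1 and CHAC1, named after their values were seen. As measured, at an unadjusted p under 0.05 1 was higher, and DESeq2 and limma-voom each called 0 higher. SAT1, a polyamine acetyltransferase that has been linked to lipoxygenase levels, fell from 106.3 ± 4.19 to 87.2 ± 3.84 CPM (log2 fold change -0.29, adjusted p = 0.0109) and by 0.36 after the offset (adjusted p = 0.000241). PTGS2, cyclooxygenase 2, a transcript often read as a marker of ferroptosis, fell from 21.6 ± 1.84 to 15.2 ± 3.20 CPM (log2 fold change -0.51, adjusted p = 0.0313) and by 0.76 after the offset (adjusted p = 0.000302). Leaving out 1 library as measured, SAT1 was called in 4 of 6 fits and PTGS2 in 2 of 6, and with the offset both were called in all 6. CYB5B, an outer mitochondrial membrane cytochrome and the most abundant of the list, had a log2 fold change of -0.06 (adjusted p = 0.491) and was lower by 0.22 after the offset (adjusted p = 0.0301). CYB5B and CYB5R3 share 2421 and 1038 exonic bases with other genes on the same strand, and how such reads were counted is unknown. The list median was -0.04.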

How the data were processed

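Total RNA of 6 SiHa libraries (3 control, 3 P4HA3 overexpression) was sequenced after poly-A selection. The deposited values are raw counts per gene that the authors made with HTSeq, not normalized. The methods name STAR and GRCh38 with Ensembl annotation, whereas the submitters' processing notes name HISAT2 and GRCh38. The libraries were strand-specific (dUTP), and the versions of these tools and the strand setting of the counting are not given in the sources used here. Gene IDs were matched to GENCODE 44 on GRCh38 (60463 of 60664). Counts were tested with edgeR 4.0.16 in R 4.3.3: genes with low counts were removed (filterByExpr, minimum count 10), libraries were scaled by TMM, and overexpression was compared with control by the quasi-likelihood test, two-sided, with Benjamini-Hochberg adjustment over 15130 genes and a threshold of 0.05. CPM values use TMM library sizes. Libraries of 21773488 to 24939948 counts gave a biological coefficient of variation of 7.66%. Floors and counts near them cover counting error only.

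Of the tested genes 15107 had a GC content, and the log2 fold change correlated with it (Spearman rho = -0.581 across genes, which are not independent replicates). As an alternative, a smooth of log2 deviation on GC content and log transcript length was fitted in each library (mgcv 1.9.3) and used as an offset. Other alternatives were DESeq2 1.42.0, limma-voom (limma 3.58.1), other normalizations and filters, a replicate block and leaving out each library. The 10 members and the pathway lists were chosen with earlier results of these data known. Named from each list were genes called at a mean of at least 1 CPM (at most the 4 largest changes) and the most abundant gene; likeness between genes was the Pearson r of log2 CPM. MACROH2A2, EMG1, DNAJC17 and pseudogenes are named because they overlap or resemble a named gene. The other lipoxygenases and the cell type markers are given as count ranges or sums, and ACTG2 by library. Some genes that this rule names are not reported here. All 6 columns of counts were used.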

Additional observations from a re-analysis of the deposited data

How the results depend on the processing

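DESeq2, limma-voom, other scalings and other filters on low counts all called the members GPX4, AIFM2 and POR lower and none higher. The GC and length offset, in both forms and with the replicate block, called AIFM2, GCH1 and ACSL4 lower and none higher. An offset taking out each library's whole deviation, chosen after seeing the data, gave 1603 genes higher and 1202 lower, 57.1% of calls higher against 45.0% in the uncorrected fit (1416 and 1731), and the offset itself gave 1394 and 1408. MBOAT2 had a positive log2 fold change as measured and turned negative with the offset (-0.0644), with the whole deviation (-0.0508), with the offset and block (-0.0635), and with the offset and 1 library left out (-0.131 to -0.00266, against 0.163 to 0.239 with 1 library left out and no offset). Genes called higher numbered 2384 with no filter. Leaving out 1 library, with or without the offset, gave 163 to 2814 genes higher, 371 to 2716 lower and 0 to 4 members lower; without the offset there were 0 members lower without control replicate 1, control replicate 2 or overexpression replicate 3, and 4 without overexpression replicate 1. The replicate numbers did not pair the libraries (correlation of same-numbered deviations 0.25, -0.0486 and 0.0297). With the replicate block 2138 genes were higher and 2175 lower, and the members called were GPX4, AIFM2 and POR. The median of the selenoprotein list was -0.00521 with the offset, 0.0084 with the whole deviation, -0.00497 with offset and block, and -0.125 to 0.0165 with 1 library left out, with or without the offset. That of the lipid oxidation list was 0.0302, 0.0439 and 0.0301 under the same 3 settings and -0.0849 to 0.0538 with 1 library left out, and that of the phospholipid list -0.185 to -0.116 with 1 library left out. Why these values moved was not tested. Depth limits ALOX15B and ESR1, at 0 to 2 counts.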

Other observations

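Beside the members, 5 genes of the same pathways outside the naming rule were chosen after their values were seen. ACSL3, LPCAT2, LRP8 and CHAC1 passed the test after the GC and length offset and not as measured, and FAR1 passed in neither. ACSL3, which activates monounsaturated fatty acids and is the counterpart of ACSL4, had a log2 fold change of -0.21 as measured (adjusted p = 0.107, edgeR) and -0.46 ± 0.0499 with the offset (adjusted p = 0.000167), where it was called in all 6 fits that left out 1 library. LPCAT2, an acyltransferase of platelet-activating factor synthesis, had -0.14 (adjusted p = 0.187) and -0.40 (adjusted p = 0.00171). LRP8, the receptor that takes up selenoprotein P, had -0.19 (adjusted p = 0.0567) and -0.27 (adjusted p = 0.00164). CHAC1, a glutathione-degrading enzyme, was at 5.90 ± 1.11 against 7.52 ± 0.324 CPM, with 0.36 (adjusted p = 0.0812) and 0.59 with the offset (adjusted p = 0.00993). FAR1, which makes the fatty alcohols of ether lipids, had 0.52 ± 0.167 as measured (adjusted p = 0.0504) and 0.21 with the offset (adjusted p = 0.101), and overexpression replicate 2 was its highest library at 49.94 CPM.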
